A study of Mus musculus with 6 samples.

Results

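The 10 genes described here were *Epop* and 9 genes of Polycomb repressive complex 2 (PRC2), among the 23462 genes matched to probes of the array. The 9 PRC2 genes were listed for their place in the complex, whereas *Epop* was selected on its measured difference between miR-22 knockout (KO) and wild-type (WT) mice, which was among the largest rises on these same arrays. The values of *Epop* in this contrast are therefore a description and carry no test, and the question asked was whether the other genes of the complex moved with it. RNA came from brown adipose tissue (BAT), the fat depot that burns fuel to make heat, of 3 WT and 3 KO mice, all of them male and 8 weeks old. The KO mice lacked miR-22 in every tissue, no other allele or treatment was given for either group, and each mouse was measured on 1 Agilent array with 1 dye. The design text mentions a flow separation into TRIzol but names no cell type, and the labels give the sample as brown adipose tissue.

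PRC2 places methyl groups on lysine 27 of histone H3, the H3K27me3 mark that holds developmental genes silent. Its core is an enzyme, Ezh1 or Ezh2, with the scaffold protein Suz12, the mark-reading protein Eed and a histone-binding protein, Rbbp4 or Rbbp7. Accessory proteins divide it into 2 forms. PRC2.1 carries one of the Polycomb-like proteins Phf1, Mtf2 or Phf19 together with Epop or the product of *Lcor*, and PRC2.2 carries Jarid2 and Aebp2. Epop is known from embryonic stem cells as the subunit that links PRC2.1 to Elongin B and C. In precursors of adipocytes Ezh2 is known to silence Wnt genes, which hold back adipogenesis. Ezh2 is also known as the enzyme of dividing cells and Ezh1 as that of resting cells.

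miR-22 is the small RNA that the KO mice lack, and its mature sequences are shown because its loss is the only labelled difference between the groups. Both arms lie on the plus strand of chromosome 11 (RefSeq, GRCm38.p6), miR-22-5p at chr11:75463734-75463755 and miR-22-3p at chr11:75463772-75463793. They are printed 5′ to 3′ with the seed, bases 2 to 8, in capitals.
mmu-miR-22-5p: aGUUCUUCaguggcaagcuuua
mmu-miR-22-3p: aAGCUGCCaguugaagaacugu
*Suz12*, *Epop* and *Ezh1* lie on the same chromosome, in that order after the miR-22 locus.

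No probe matched mature miR-22, so the deletion itself was not checked on these arrays. *Mir22hg*, the transcript that hosts miR-22, had scaled log2 signals of 1.20, 1.69 and 1.22 in WT mice 1 to 3 and 2.02, 2.11 and 2.23 in KO mice 1 to 3. A scaled log2 signal is the log2 of a probe's signal over the 75th percentile of its own array, so a value of 0 equals that percentile. The 3 KO mice were above the 3 WT mice, by 0.75 (standard error 0.18, adjusted p = 0.108, limma with Benjamini-Hochberg adjustment over 14711 genes). All KO values were likewise above all WT values in 14.2% of 11576 genes. The brown adipocyte list fitted the labelled tissue, with 10 of 10 markers above background on all 6 arrays and *Ucp1*, the uncoupling protein that makes the heat, at scaled log2 signals of 5.0 to 5.85 with marked spots kept. The 75th percentile of the arrays ranged from 1435 to 2633 intensity units, and 4.87 to 17.1% of spots were marked by the scanner software as outliers and left out. On the slide, 2 WT arrays lay in the first row and 1 WT array (mouse 3) and the 3 KO arrays in the second, so values with slide row as a block are given where they change a call. In whole tissue, fewer cells of a type and less RNA per cell cannot be told apart, and the p-values measure the spread between 3 and 3 mice.

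*Epop* was dim in WT BAT and brighter in KO BAT. Its scaled log2 signal was −5.53, −5.94 and −5.45 in WT mice 1 to 3 and −4.0, −3.62 and −3.83 in KO mice 1 to 3. Every KO mouse was above every WT mouse, and the mice of each group lay within 0.5 of each other. The WT mean was −5.64 ± 0.26 (SD, n = 3) and the KO mean −3.82 ± 0.19 (SD, n = 3). The log2 difference was 1.83 (standard error 0.19, 95% interval 1.39 to 2.26), which is a 3.54-fold higher signal. This difference was chosen for its size, and no p is given for it.

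**Figure D1:**
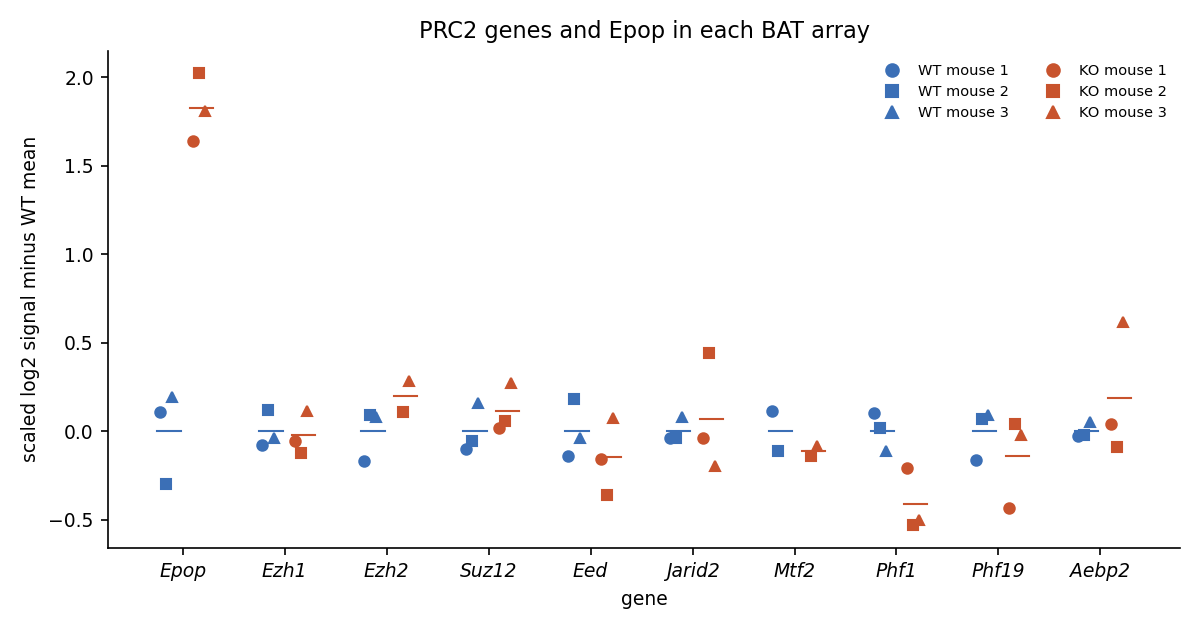
Each point is 1 array and gives the scaled log2 signal of a gene minus its mean over the WT arrays, for *Epop* and the 9 PRC2 genes, with WT mice in blue, KO mice in orange, and bars at the group means. The KO points of *Epop* lie between 1.64 and 2.02, whereas the KO means of the other genes lie between −0.41 and 0.20.

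In intensity units before any scaling, the *Epop* spot gave 42.9, 23.4 and 36.6 in WT mice 1 to 3 and 159, 214 and 112 in KO mice 1 to 3. The probe was well above background on all 6 arrays, but in WT mice it lay not far over the lowest spot that was, which stood at 25.8, 20.6 and 29.8 units. In KO mice that lowest spot stood at 104, 45.0 and 25.6 units. The values of the WT mice and of KO mouse 1 were thus near the limit of what their arrays measured, and those of KO mice 2 and 3 were farther above it. Without the array scaling, the median pixel of the *Epop* spot was 1.97 to 2.6 times its local background in WT mice and 5.19 to 6.83 times in KO mice. These are the same spots on which *Epop* was chosen, so the ratio describes them and adds no second measurement. Among all non-control spots of its array, *Epop* ranked at the 35.0th to 39.4th percentile in WT mice and at the 48.4th to 50.6th in KO mice. Among only the spots well above background, *Epop* ranked at percentiles 7.32, 0.69 and 2.69 in WT mice 1 to 3. On that rank KO mice 1 to 3 stood at 7.58, 25.05 and 22.29, so KO mouse 1 lay close to WT mouse 1. After normexp background correction, which added an offset of 50 units to signals of this size, the difference was 0.80 (standard error 0.14). Only 1 probe on the array matched *Epop*, so no second probe could be set beside it.

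**Figure D2:**
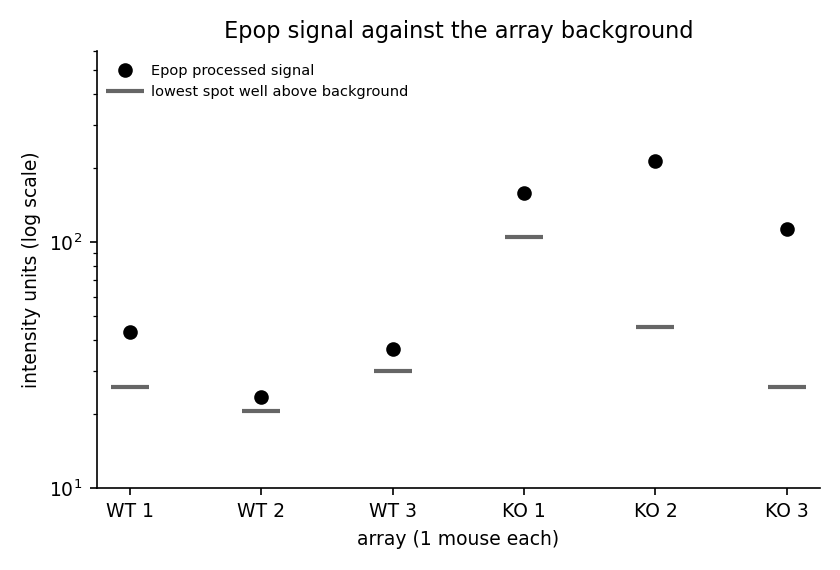
Processed signal of the *Epop* probe in intensity units on a log axis (points) for each of the 6 arrays, with the lowest spot well above background on the same array as a bar. The WT points of 42.9, 23.4 and 36.6 units lie close above their bars, and the KO points of 159, 214 and 112 units lie farther above theirs on arrays 2 and 3 than on array 1.

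The other 9 genes of the complex did not show this difference. Their log2 differences ran from −0.41 to 0.20 with standard errors of 0.14 to 0.20, 5 of the means being lower and 4 higher in KO mice. The median was −0.02, against −0.03 over all 14711 genes tested, and 8 of the 9 lay within 0.25 of 0. The highest upper bound of their 95% intervals was 0.67. The smallest gap between *Epop* and any of them was 1.63 on the log2 scale. At an unadjusted p under 0.05, the threshold of the study's methods, 1 of 9 was lower in KO mice (*Phf1*), where 8.82% of all genes were, and 0 of 9 were higher, where 10% were. In either direction this was 1 of 9 against 18.8% of all genes. After adjustment 0 of 9 passed, with adjusted p of 0.216 to 0.936, where 0.184% of all genes (27) did, 0.0408% being lower and 0.143% higher. Of the 7 complex genes whose representing probe had no marked spot, 1 had groups that did not overlap, as did 28.9% of the 11576 genes with such a probe. Counted in either direction, the shares of the complex genes were thus not above those of all genes.

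**Figure D3:**
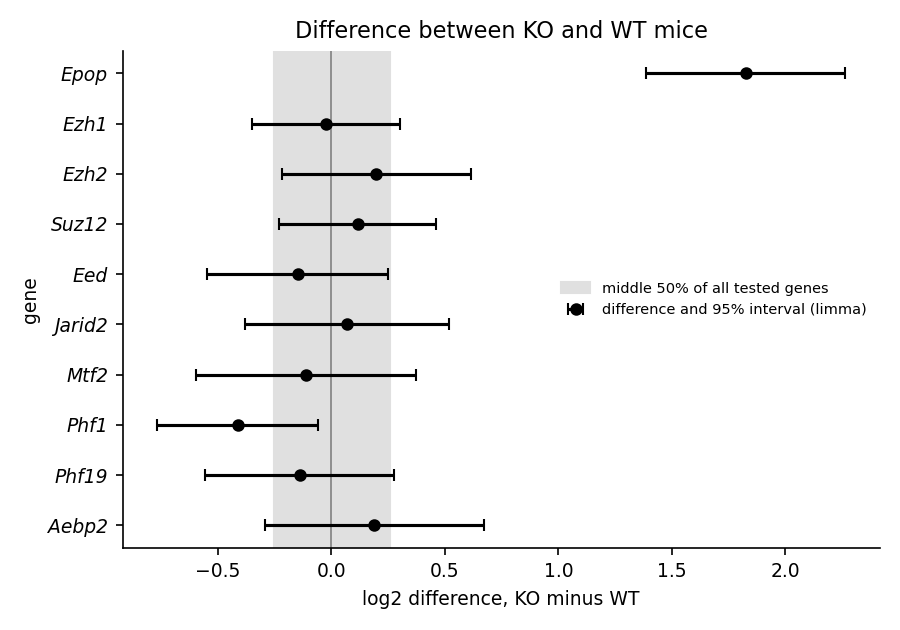
Log2 difference between KO and WT mice (points) with its 95% interval from limma (bars) for each of the 10 genes, and the middle 50% of all tested genes, −0.25 to 0.26, as a grey band. *Epop*, at 1.83, was chosen for its difference, and among the other 9 genes only the interval of *Phf1* (−0.77 to −0.06) leaves out 0.

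Both enzymes were detected in every mouse. *Ezh1* had scaled log2 signals of 1.33, 1.52 and 1.37 in WT mice 1 to 3 and 1.35, 1.28 and 1.52 in KO mice 1 to 3. These groups overlapped almost completely, with a difference of −0.02 (standard error 0.14, 95% interval −0.35 to 0.30, adjusted p = 0.936). *Ezh2* stood at 0.43, 0.69 and 0.69 in WT mice 1 to 3 and at 0.71 and 0.89 in KO mice 2 and 3, the spot of KO mouse 1 being marked. The difference was 0.20 (standard error 0.17, 95% interval −0.22 to 0.61, adjusted p = 0.552), which did not pass. With the marked spot kept, at 0.83, the 3 KO values lay above the 3 WT values, by 0.21. A further 4 probes of *Ezh2* were testable. One of them gave −0.64, −0.52 and −0.66 in WT mice and −0.14, −0.48 and −0.27 in KO mice, again without overlap, with a difference of 0.31 (standard error 0.16, adjusted p = 0.373 over 31238 probes). Of 11576 single genes 14.2% were likewise higher in KO mice without overlap. Without KO mouse 2 the first probe had too few unmarked spots, and the probe that differed by 0.31 stood for the gene. Its difference was then 0.40 (unadjusted p = 0.0354, adjusted p = 0.264, limma), where 9.27% of all genes were higher at an unadjusted p under 0.05. The other 3 probes overlapped between the groups and differed by 0.37, 0.05 and −0.08, so the probes of *Ezh2* did not share 1 direction.

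Within an array, the *Ezh1* signal minus the *Ezh2* signal was 0.89, 0.83 and 0.68 in WT mice 1 to 3 and 0.57 and 0.63 in KO mice 2 and 3. This balance of the 2 probes, which says nothing about which mRNA was more abundant, was 0.20 lower in KO mice on average. A two-sided exact permutation test gave p = 0.2, the smallest that 3 against 2 arrays can give. With the marked spot kept the KO mouse 1 value was 0.52, and the exact p = 0.1 was again the smallest that 3 against 3 arrays can give. Taking the mean of all testable probes of each gene gave 0.034. That mean left out marked spots, so it lacked the brightest *Ezh2* probe (0.83) in KO mouse 1 and a dimmer one (−1.75) in WT mouse 3. The arrays were thus averaged over unlike *Ezh2* probes, and the change of sign cannot be read as a reversal.

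The remaining core genes gave no difference beyond the spread between mice. *Suz12* was at −2.93, −2.88 and −2.67 in WT mice 1 to 3 and −2.81, −2.77 and −2.55 in KO mice 1 to 3, a difference of 0.11 (standard error 0.15, 95% interval −0.23 to 0.46, adjusted p = 0.686). A brighter *Suz12* probe had 4 of its 6 spots marked and was not tested, and over all its values it differed by −0.08. *Eed* was at 0.76, 1.09 and 0.87 in WT mice 1 to 3 and 0.75, 0.54 and 0.98 in KO mice 1 to 3, a difference of −0.15 (standard error 0.17, 95% interval −0.55 to 0.25, adjusted p = 0.649). The groups of both genes overlapped, and neither interval reached 0.6 in size.

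Among the Polycomb-like proteins of PRC2.1, the form to which Epop belongs, only the gene *Phf1* passed the unadjusted threshold, and it was lower. This was 1 of the 9 complex genes, where 8.82% of all genes were lower at that threshold. Phf1 binds methylated histone H3 through its Tudor domain and brings PRC2 to chromatin. Its scaled log2 signal was 0.34, 0.26 and 0.13 in WT mice 1 to 3 and 0.03, −0.29 and −0.26 in KO mice 1 to 3. All KO values lay below all WT values, as they did in 14.7% of the 11576 genes without a marked spot on the representing probe, though KO mouse 1 was within 0.1 of WT mouse 3. The difference was −0.41 (standard error 0.15, 95% interval −0.77 to −0.06, unadjusted p = 0.0285, adjusted p = 0.216, limma). With slide row as a block it was −0.30 (limma, adjusted p = 0.700, unadjusted p = 0.244). SAM, the permutation test that the methods name, gave an unadjusted p = 0.0652. Leaving out WT mouse 1, WT mouse 2, KO mouse 2 or KO mouse 3 also ended the call at the unadjusted threshold, with adjusted p of 0.30 to 0.368 from limma, while the direction held in all 20 alternatives run.

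The other Polycomb-like genes did not differ detectably. *Mtf2* had 2 unmarked values in each group, 0.42 and 0.19 in WT mice 1 and 2 and 0.16 and 0.22 in KO mice 2 and 3, a difference of −0.11 (standard error 0.19, 95% interval −0.60 to 0.37, adjusted p = 0.763). Its other 2 probes had 3 or 4 marked spots and were not tested, and over all values they differed by 0.67 and −0.20, both with overlapping groups. *Phf19* was at −3.17, −2.94 and −2.92 in WT mice 1 to 3 and −3.45, −2.97 and −3.03 in KO mice 1 to 3, a difference of −0.14 (standard error 0.18, 95% interval −0.56 to 0.28, adjusted p = 0.681). KO mouse 1 held the lowest *Phf19* value and the other KO mice lay near the WT mice.

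The genes of PRC2.2 were no closer to *Epop*. Jarid2 is a catalytically inactive relative of the histone demethylases that anchors PRC2.2, and *Jarid2* was at 0.30, 0.30 and 0.42 in WT mice 1 to 3 and 0.30, 0.78 and 0.15 in KO mice 1 to 3. The WT values lay inside the range of the KO values, with a difference of 0.07 (standard error 0.19, 95% interval −0.38 to 0.52, adjusted p = 0.855). A second *Jarid2* probe, matched to another transcript record, had unmarked values of −1.65 and −1.13 in WT mice 1 and 2 and −0.63 and −0.65 in KO mice 2 and 3. Its difference was 0.75 (standard error 0.25, unadjusted p = 0.0302, adjusted p = 0.25), where 9.7% of all probes were higher at that unadjusted threshold. With the marked spots of WT mouse 3 and KO mouse 1 kept, it was 0.42 and the groups overlapped. *Aebp2*, the zinc finger partner of Jarid2, was at −1.30, −1.30 and −1.22 in WT mice 1 to 3 and −1.23, −1.36 and −0.66 in KO mice 1 to 3. KO mouse 3 alone set the difference of 0.19 (standard error 0.20, 95% interval −0.29 to 0.67, adjusted p = 0.635), and a second probe differed by 0.02.

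**Figure D4:**
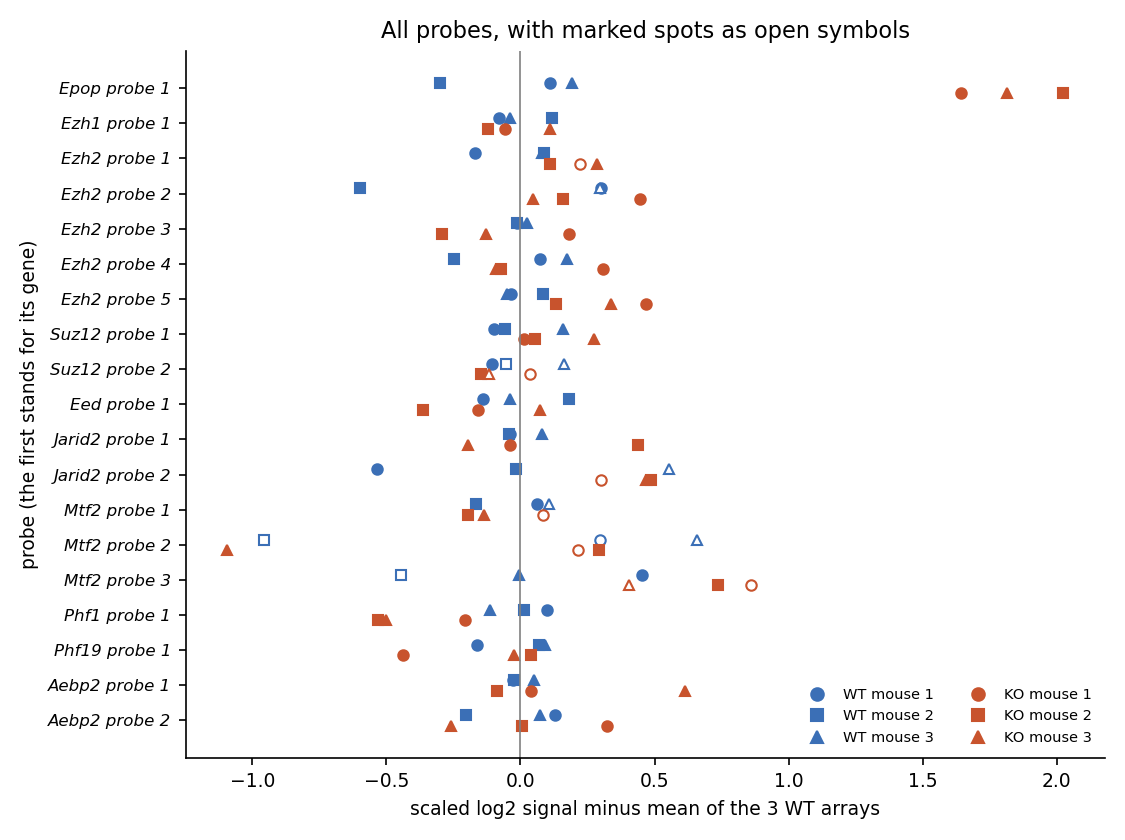
Scaled log2 signal of each of the 19 probes of the 10 genes on each array, minus the mean of its 3 WT arrays, with WT mice in blue, KO mice in orange and spots marked as outliers as open symbols. The first probe of a gene stands for it in the text. The KO points of *Epop* are to the right of all other points, and open symbols are spread over 7 probes of *Ezh2*, *Suz12*, *Jarid2* and *Mtf2*.

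All 19 probes of the 10 genes were well above background on all 6 arrays, and 16 of them had enough unmarked spots to be tested. Of their 114 values 17 were marked, in 7 probes, 9 of them in *Mtf2* alone. *Epop*, *Ezh1*, *Eed*, *Phf1*, *Phf19* and *Aebp2* had no marked spot.

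The wider Polycomb system was described by lists of its parts. Of 6 tested partner genes of PRC2, 0 passed the unadjusted threshold, and the median difference was −0.23. *Lcor*, which encodes the PRC2.1 subunit that takes the place of Epop, differed by −0.38 (standard error 0.17, adjusted p = 0.283) and *Elob*, which encodes Elongin B, by −0.36 (standard error 0.20, adjusted p = 0.367). Of 22 tested genes of Polycomb repressive complex 1 (PRC1), which binds the mark and ubiquitinates histone H2A, 0 passed. The lowest difference was −0.58 for *Rnf2*, its ubiquitin ligase (standard error 0.31, 2 unmarked values per group). The highest was 0.40 for *Phc3* (standard error 0.28), a dim gene detected on 5 arrays. Neither *Uty* (−0.23) nor *Kdm6a* (0.18), of the family of H3K27 demethylases, passed, nor did any of 4 genes of the PR-DUB complex, which removes the ubiquitin, with *Asxl2* at −0.26 and *Asxl3* at 0.28. At this threshold the count was 0 in every one of these 4 lists, where 18.8% of all genes passed. Under the other settings run, the PRC2 partners reached at most 2 genes lower and 0 higher. Each other list reached at most 1 lower and 1 higher. In the settings with 2 or more arrays per group, 2.41 to 13.1% of all genes were lower and 6.07 to 11.2% higher. These lists are short, so 1 gene can be a large share. Without WT mouse 2, 1 of 2 demethylase genes was lower, where 5.57% of all genes were.

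Genes that PRC2 classically silences were mixed. Of the Hox genes, which set position along the body axis, 23 of 39 were bright enough to test, and 5 were higher (21.7%, against 10% of all genes) and 4 lower (17%, against 8.82%), with a median of −0.04. The smallest p-values were those of *Hoxa2* (0.97, standard error 0.15, adjusted p = 0.0610), *Hoxa9* (1.17, standard error 0.24, adjusted p = 0.0850), *Hoxc5* (−0.69, standard error 0.15, adjusted p = 0.0937) and *Hoxd4* (0.67, standard error 0.16, adjusted p = 0.108). *Hoxa2* was at −4.12, −3.83 and −3.68 in WT mice 1 to 3 and −2.88, −2.89 and −2.93 in KO mice 1 to 3, whereas *Hoxc5* was at −0.05, 0.05 and −0.27 against −0.78, −0.89 and −0.66. These 2 genes, both without overlap, thus stood in opposite directions. With slide row as a block 4 of 21 Hox genes were higher, where 6.29% of all genes were, and 1 was lower, where 2.41% were. Without WT mouse 3 there were 2 lower, where 6.68% of all genes were, and over all settings run 3 to 7 were higher and 1 to 7 lower. In the list of regulators of other lineages and cell cycle inhibitors, of which 18 genes were tested, the median difference was 0.12 and 0 genes were lower at the unadjusted threshold. *Cdkn2b*, which encodes the cell cycle inhibitor p15, was higher at that threshold only (0.65, standard error 0.21, adjusted p = 0.182). Within the second row of the slide 0 genes of this list were higher at that threshold, where 5.51% of all genes were.

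**Figure D5:**
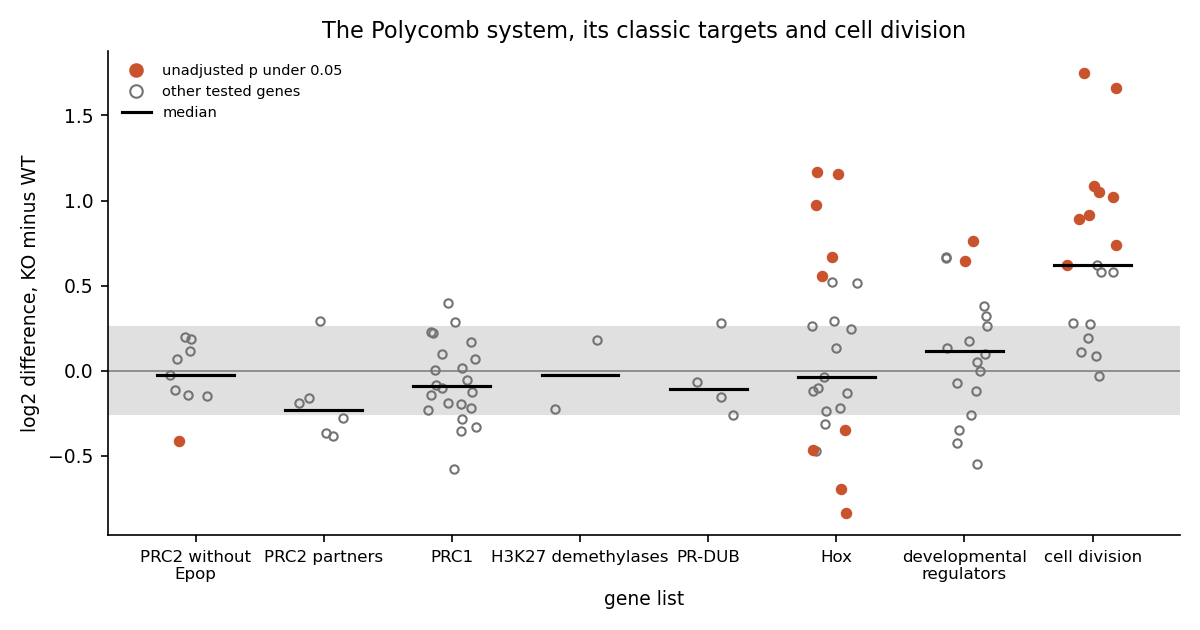
Log2 difference between KO and WT mice for each tested gene (points) of 8 gene lists, filled where the unadjusted p was under 0.05, with the median of each list as a bar and the middle 50% of all tested genes as a grey band. The PRC2, PRC1, demethylase and PR-DUB lists lie mostly inside or near the band, the Hox genes spread to both sides from −0.83 to 1.17, and the cell division genes have a median of 0.62.

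The cell division list, included because Ezh2 is known as the enzyme of dividing cells, moved where the complex did not. Of its 18 tested genes 9 were higher in KO mice at the unadjusted threshold (50%, against 10% of all genes) and 0 lower, with a median of 0.62. *Rrm2*, a subunit of ribonucleotide reductase, differed by 1.05 (standard error 0.22, adjusted p = 0.0857) and *Top2a*, a DNA topoisomerase, by 1.75 (standard error 0.36, adjusted p = 0.0888). *Plk1*, a kinase of mitosis, differed by 0.62 (adjusted p = 0.108) and *Tpx2*, a spindle protein, by 1.08 (adjusted p = 0.141). The count was 4 of 18 with slide row as a block, where 6.29% of all genes were higher, and 3 of 18 within the second row, where 5.51% were. No gene of this or any other of these lists passed the adjusted threshold. Averaged over its 20 genes, of which 15 were detected on all arrays, the list stood at −3.68 to −3.58 in WT mice and −3.20 to −2.40 in KO mice, without overlap. Of single genes 14.2% were higher in KO mice without overlap, *Epop* among them. The summed level of the list, in which bright genes count most, overlapped between the groups. It was 3.47 to 3.68 in WT mice and 3.63 to 3.79 in KO mice on the log2 scale. KO mouse 2 held the highest list mean, −2.40, with KO mice 1 and 3 at −2.92 and −3.20.

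Markers of other cell types that the tissue could hold were read beside *Epop*. The lymphocyte list was close to background, with 3 of 7 genes detected on all arrays and *Ms4a1*, the B cell gene that encodes CD20, on none, and its mean was −5.56 to −5.20 in WT mice and −5.16 to −4.78 in KO mice. The summed level of this list was −1.72 to −1.21 in WT mice and −1.01 to −0.95 in KO mice on the log2 scale, so the groups did not overlap here either. Of single genes 14.2% were higher in KO mice without overlap. The highest list mean, −4.78, was that of KO mouse 1, the array whose lowest spot well above background stood highest, at 104 units. Of the neuron list 5 of 8 genes were detected on all arrays and *Rbfox3* and *Syt1*, defining genes of neurons, on none, and its summed level was 4.27 to 4.31 in WT mice and 3.54 to 3.94 in KO mice. That level was lower in KO mice and was set mostly by 1 gene, *Snap25*, at 4.08 to 4.14 in WT mice and 3.33 to 3.78 in KO mice with marked spots kept. The next brightest gene, *Stmn2*, was at most 0.71, and it was also lower in KO mice. So was *Syp*, at −0.81 to −0.42 in WT mice and −1.66 to −1.41 in KO mice, whereas *Gap43*, *Map2* and *Tubb3* overlapped. Among single genes 14.7% were lower in KO mice without overlap. The mean of the neuron list, in which each gene counts equally, overlapped between the groups. The skeletal muscle list varied most, from −4.05 to 2.41 over the WT mice and from 0.17 to 3.35 over the KO mice, with overlapping groups. The part of dividing cells, lymphocytes or muscle in the difference of *Epop* was not tested.

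The genes whose profile over the 6 arrays was nearest to *Epop* were *Fam174b*, *Slc7a8*, *Wfdc21*, *Pola2* and *Kcne3*, by the root mean square (RMS) difference of centred log2 signals over 9568 genes without a marked spot and detected on all arrays. Their RMS differences from *Epop* were 0.0896, 0.170, 0.175, 0.185 and 0.221, against a median of 0.97 over all candidates. *Fam174b* was at −1.60, −1.83 and −1.36 in WT mice 1 to 3 and −0.0039, 0.41 and 0.02 in KO mice 1 to 3. As for *Epop*, the lowest WT value was that of mouse 2 and the highest KO value that of mouse 2. Of these genes *Wfdc21* lies on the chromosome of *Epop* and the others lie on chromosomes 7, 14 and 19. The 7 complex genes with full data were at RMS differences of 0.871 (*Aebp2*) to 1.15 (*Phf1*), around that median. As these 6 arrays also gave the difference of *Epop*, the likeness is a description only.

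The tested gene records near *Epop* on chromosome 11 did not move as a block with it. Of 5 records on each side 8 were on the array and 5 were tested. Before *Epop* only *Arhgap23*, 5 records away, was tested, so the nearer records on that side gave no values. At an unadjusted p under 0.05 (limma), 2 of the 5 tested records passed, where 18.8% of all genes did. *Gm11613*, a long noncoding RNA and the nearest record after *Epop*, was at −0.74, −0.52 and −1.20 in WT mice 1 to 3 and −0.25, −0.36 and −0.39 in KO mice 1 to 3. It differed by 0.48 (standard error 0.20, unadjusted p = 0.0434, adjusted p = 0.252). *Cisd3*, which encodes a mitochondrial iron-sulfur protein, went the other way by −0.55 (standard error 0.17, unadjusted p = 0.0158, adjusted p = 0.174). *Mllt6* (−0.32), *Arhgap23* (−0.20) and *Pcgf2* (−0.12), the last a subunit of PRC1, did not pass. The differences of the tested neighbours thus ran from −0.55 to 0.48, short of the 1.83 of *Epop*.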

How the data were processed

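BAT RNA from 6 mice, 3 per genotype, was hybridized to Agilent arrays with 1 dye and 1 mouse each. The intensity values that the authors deposited are processed signals of Agilent Feature Extraction (11.5.1.1 per the file headers, 10.7 in the submitters' processing notes), background-subtracted and not scaled between arrays. The log2 table that the authors deposited served as an alternative, and its normalization is not given in the sources used here. Signals were set against the 75th percentile over non-control spots of their array, on a log2 scale. Marked spots were left out, and probes well above background on at least 3 arrays with at least 2 unmarked values per group were tested. Of 56605 probes 33767 were matched to genes through RefSeq accessions (GRCm38.p6), and the brightest testable probe stood for a gene. Groups, taken from the labels, were tested with limma 3.58.1 (lmFit, eBayes) under R 4.3.3 with data.table (version 1.17.8), two-sided, with Benjamini-Hochberg adjustment over 14711 genes. The steps were tested on simulated data. Precision is limited by the number of arrays.

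The members and lists were chosen with earlier results of these data known. All members were named with every probe. Of each other list the genes with an unadjusted p under 0.05 were named, at most the 4 smallest, or, with none, the 2 with the largest differences. The 5 profiles nearest to *Epop* and the tested genes among 5 records on either side were also named. A result of the developmental list is not reported here. Alternatives covered the scaling (quantile, median of detected probes), the background (normexp), the source (the authors' log2 values), the filter on dim probes (none, or all 6 arrays), the probe (mean per gene), marked spots (kept), slide row (block, second row alone), the test (SAM, the t-test of the methods, eBayes with robust trend) and each array left out.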

Additional observations from a re-analysis of the deposited data

How the results depend on the processing

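The difference of *Epop* was above 0 in all 17 alternatives run, from 0.80 with normexp and an offset of 50 to 1.92, and leaving out each array in turn gave 1.68 to 1.92. With slide row as a block, and within the second row, it was 1.63. The count of complex genes lower in KO mice was 1 (*Phf1*) and became 0 with normexp, with that block, within the second row and with SAM, and ranged from 0 to 1 when each array was left out. The count higher was 0 and ranged from 0 to 1 on leaving out each array. The 1 was *Ezh2* (0.40, adjusted p = 0.264, limma) without KO mouse 2, where 9.27% of all genes were higher at the unadjusted threshold. There another *Ezh2* probe stood for the gene because the first had too few unmarked spots. The *Ezh1* minus *Ezh2* balance of −0.20 was 0.034 with the mean of all testable probes and −0.082 within the second row, and leaving out each array gave −0.39 to −0.16. In that range the values without KO mouse 2 (−0.38) and KO mouse 3 (−0.39) rest on the other *Ezh2* probe, so they are no values of the same probe pair. The mean of all testable probes left out marked spots, so it averaged unlike *Ezh2* probes in KO mouse 1 and WT mouse 3. The cause of the other shifts was not tested. *Phf1* was below 0 in all 20 alternatives (−0.52 to −0.30), at an unadjusted p under 0.05 in 12 of them. Over all genes, 1476 were higher and 1297 lower at the unadjusted threshold, against 1115 and 1934 with scaling to the median of detected probes, which moved the median of all genes to −0.10, and 1169 and 1501 with quantile normalization. After adjustment limma called 21 genes higher and 6 lower, SAM 0 in either direction, and eBayes with trend and robust 160 and 123. The values of each other testable probe were added after the data were seen. No paired analysis was possible because the labels give the 2 groups no shared replicate numbers. The dim WT signal of *Epop*, near the lowest spot well above background, limits its fold.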
